A study of Drosophila melanogaster with 4 samples.

Results

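The genes described here encode structural proteins of the insect cuticle in Drosophila melanogaster. They were chosen by name, as every gene called Lcp (larval cuticle protein), Cpr (cuticular protein with the Rebers and Riddiford chitin-binding consensus, numbered by its place on the polytene map), Edg (ecdysone-dependent gene) or Acp65 (adult cuticle protein) followed by its number or letters. This gave 89 of the 14161 genes in the deposited tables: 70 named Cpr, 15 named Lcp, 3 named Edg and 1 named Acp65. The rule itself uses names alone.

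RNA was sequenced from larvae of the third instar, the last larval stage. Normal larvae, diploids that the design text calls Cantons, were compared with larvae trisomic for 2L (chromosome 2, left arm), which have 3 copies of that arm in place of 2. Females and males were collected separately, so there were 4 groups, each with 4 biological replicates in the labels. All stocks were kept at 25 °C. No source used here gives the strain of the trisomic larvae, how the extra arm was carried or the hours of age, so karyotype, strain and exact age cannot be told apart. Each deposited value is a mean over a group made by the authors, in CPM, where CPM stands for read counts scaled to a fixed library total. They carry no replicate values, depth or error, so every difference below is a size between group means, without a test.

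Cuticle is secreted by the epidermis and consists of chitin fibres set in protein, and the consensus region of most of these proteins binds chitin. A new cuticle is laid down at every moult under the control of ecdysone, the moulting hormone, and each stage uses its own mixture of cuticle proteins. Lcp1 to Lcp4 are known for encoding major proteins of the cuticle of the last larval stage. The Edg genes are known for their expression at the transition to the pupa, and Acp65Aa for adult cuticle.

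The level of a gene was the mean over its transcript models. Averaged over the 4 groups, 27 members reached 10 CPM, 8 named Lcp and 19 named Cpr. The other 62 members lay below that minimum, and of these 35 had a mean under 1 CPM. Values under about 3 CPM do not rank genes, since in each group many transcript models share 1 low value (2.22 CPM for 645 models in normal females) while others lie below it. The member nearest above the minimum was Lcp65Ag1 with 10.6 CPM and the nearest below it was Cpr62Bc with 8.22 CPM. By arm, the 89 members comprised 47 genes on 3L, 26 on 2R, 7 on 3R, 5 on 2L and 4 on the X. The 27 members above the minimum comprised 14 genes on 2R, 8 on 3L, 3 on the X and 2 on 3R, so none of them lies on the arm present in an extra copy.

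Where 4 levels are given together, they run from females to males of the normal karyotype and then from females to males of the trisomic one, and a pair of changes in parentheses gives females first. Changes are log2 of CPM + 1, trisomic over normal of the same sex, and a member is called higher or lower where it is at least 1.5-fold apart, a log2 change of 0.58 or more in size. In females 8 of the 27 members were higher and 8 were lower, against 15.3% and 18.3% of all 6308 genes with that mean level. In males 9 were higher and 6 lower, against 17% and 29.5% of all genes. The median change of the 27 members was -0.01 in females and 0.21 in males, beside -0.06 and -0.18 over all genes. With no minimum, over all 89 members, it was -0.02 and 0.028. For calls shared by both sexes, no share over all genes is given here. On the deposited scale 8 were higher in both sexes, 6 lower in both, and 10 within 1.5-fold in both. This balance depends on the scale: with changes centred on genes of 2R, 3L and 3R (their median set to 0), 9 members were higher and 5 lower in females and 12 higher and 3 lower in males. Centred on such genes of the members' length range, 11 were higher and 4 lower in females and 16 higher and 2 lower in males. Each centring raises every change, and no share of all genes called under it is given here, so these counts have no background. The 8 higher members are of middle or low level and 4 of the 6 lower ones are among the most abundant. Of the 8 higher members 5 reached the minimum only through the trisomic groups, since the mean of their 2 normal groups was under 10 CPM, so these 5 had to differ. Likewise Cpr92F and Cpr11B reached it only through the normal groups, with a mean of 8.20 and 8.04 CPM over the trisomic ones, and had to be lower. In RNA of many tissues together, fewer epidermal cells and less RNA per cell cannot be told apart.

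**Figure D1:**
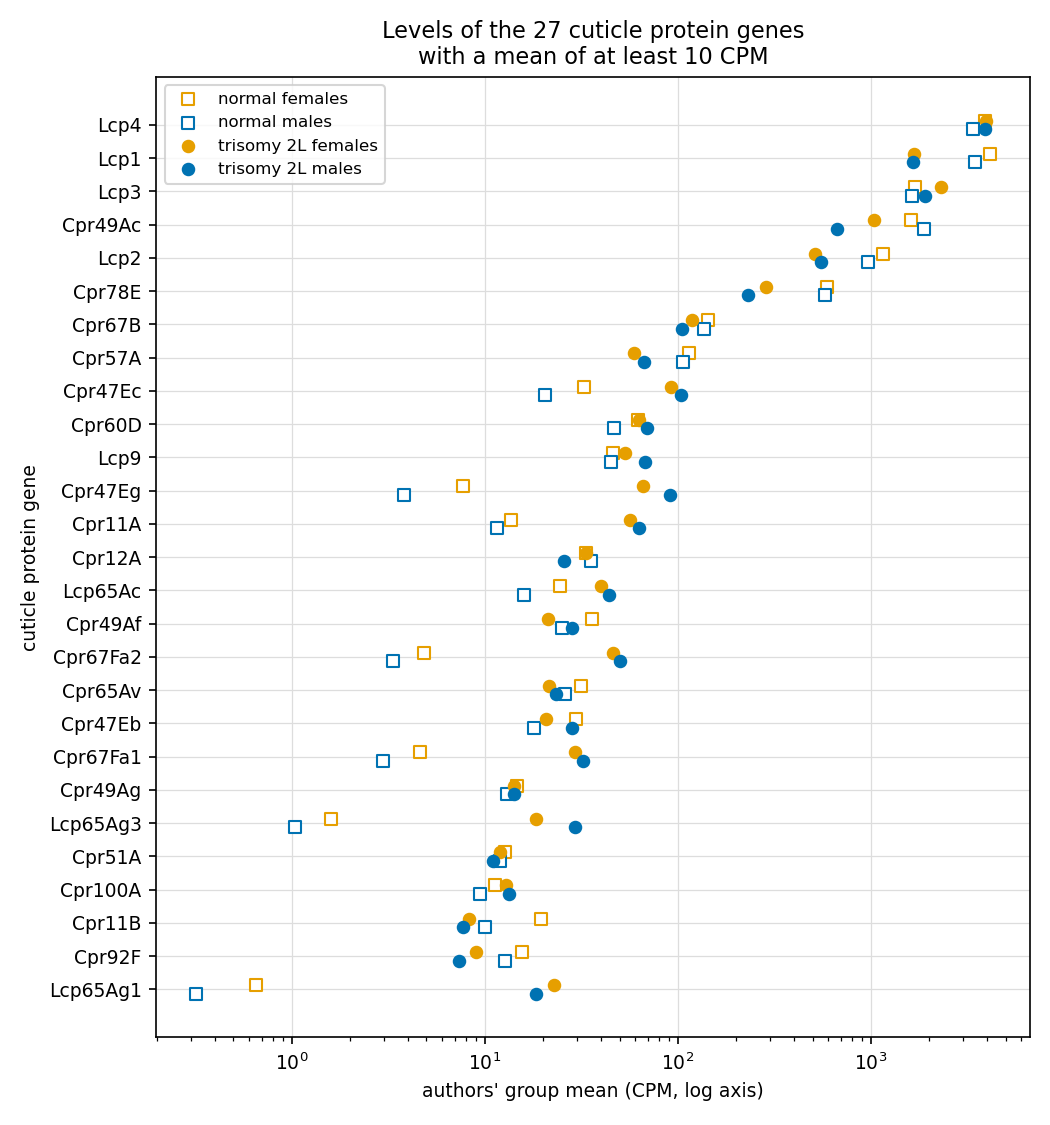
The authors' group means of the 27 cuticle protein genes with a mean of at least 10 CPM, 1 gene per row in order of mean level, on a log axis of CPM. Open squares are normal and filled circles trisomy 2L larvae, orange for females and blue for males. Lcp1, Lcp2, Cpr49Ac and Cpr78E sit to the left in trisomic larvae, and Cpr47Eg, Cpr67Fa1, Cpr67Fa2, Lcp65Ag1 and Lcp65Ag3 to the right.

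Summed over the 89 members, cuticle genes stood at 13883 and 12541 CPM in normal females and males and at 10705 and 9944 CPM in trisomic ones. These sums were 2.63%, 2.39%, 2.16% and 2.02% of the sum over all genes. Because longer transcripts give more reads, members were compared with one another per kb of exonic length, taken from a reference annotation of a later genome release. Per kb, 6 genes (Lcp4, Lcp1, Lcp3, Cpr49Ac, Lcp2 and Cpr78E) made up 94.6% and 95.1% of the members' sum in normal females and males and 91.04% and 89.4% in trisomic ones. The 44D cluster with Lcp1 to Lcp4 supplied most of this in every group.

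Within that mixture the shares of Lcp1 and of Lcp4 differed in opposite directions. Lcp4 made up 31.5% of the members' summed CPM per kb in normal females and 30.7% in normal males, and 39.5% and 41.5% in trisomic females and males. Lcp1 made up 27.4% and 25.6% in normal females and males, and 13.7% and 14.4% in trisomic ones. The share of Lcp3 was 14.5% and 15.6% in normal larvae against 24.3% and 21.4% in trisomic larvae. These are shares of a sum that was itself lower in trisomic larvae, where Lcp1, Lcp2, Cpr49Ac and Cpr78E had lower levels, and the level of Lcp4 differed by only 0.02 and 0.21 on the log2 scale.

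**Figure D2:**
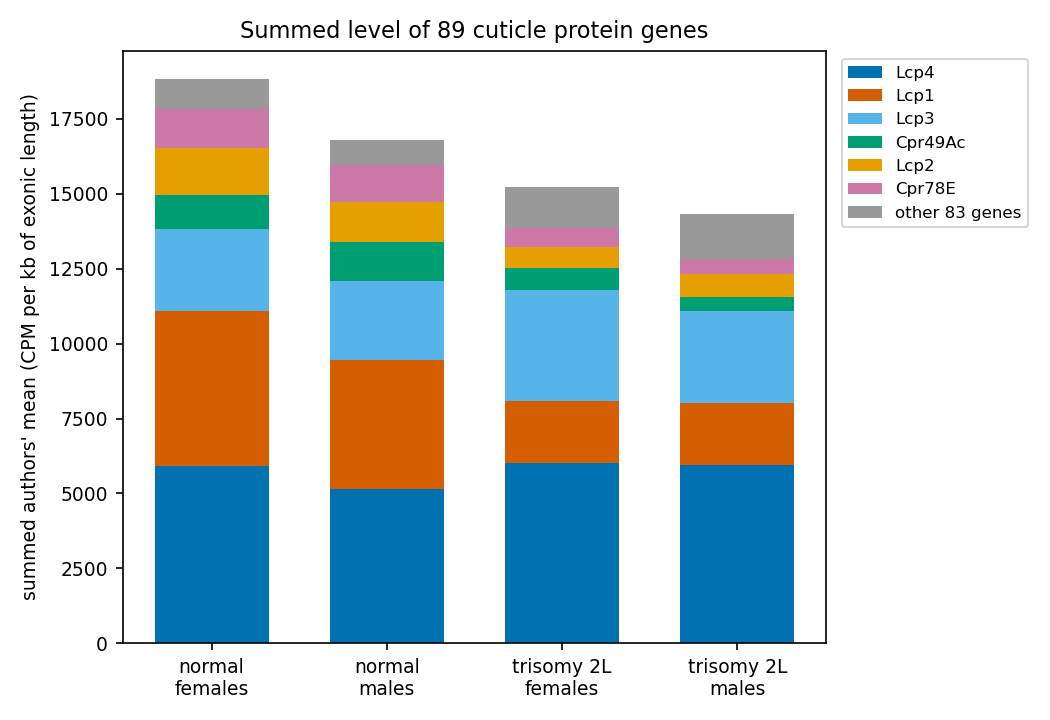
Stacked bars of the authors' group means, divided by exonic length, for the 89 cuticle protein genes in the 4 groups, in CPM per kb. The 6 most abundant genes have their own colours and the other 83 are grey. The Lcp1 segment is shorter in both trisomic bars, and the Lcp4 segment makes up 39.5% and 41.5% of them.

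Lcp1 and Lcp2, neighbouring genes of larval cuticle proteins, had lower levels in trisomic larvae of both sexes. Lcp1 stood at 4148 and 3463 CPM in normal females and males and at 1675 and 1658 CPM in trisomic ones, a log2 change of -1.31 in females and -1.06 in males. Lcp2 stood at 1161, 968, 517 and 554 CPM in the same order, with changes of -1.17 and -0.80. Both trisomic means lay below both normal means for each gene. With centring on 2R, 3L and 3R genes Lcp2 in males stood at -0.49, short of 1.5-fold, and with the length range it stood at -0.28 and Lcp1 in males at -0.54.

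Lcp3 and Lcp4, which follow them in the same cluster, were not among the lower genes. Lcp3 stood at 1693 and 1627 CPM in normal females and males and at 2299 and 1912 CPM in trisomic ones (0.44 and 0.23). Lcp4 stood at 3909, 3397, 3969 and 3929 CPM, so that both trisomic means lay above both normal means, by little in females (0.02 and 0.21). In the reference annotation Lcp1 and Lcp2 are read from one strand and Lcp3 and Lcp4 from the other.

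Ratios between cluster members do not depend on how a library is scaled. Per kb, the ratio of Lcp1 to Lcp4 was 0.87 in normal females and 0.84 in normal males, and 0.35 in both trisomic groups. That of Lcp2 to Lcp3 was 0.58 and 0.504 in normal larvae and 0.19 and 0.25 in trisomic larvae. Within the pairs the ratio differed less: Lcp1 to Lcp2 lay between 2.73 and 3.26 and Lcp3 to Lcp4 between 0.46 and 0.61 over the 4 groups. The cluster therefore divided into a pair that was lower and a pair that was not.

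Cpr49Ac and Cpr78E were the other abundant members with lower levels. Cpr49Ac stood at 1621 and 1879.7 CPM in normal females and males and at 1045 and 672 CPM in trisomic ones (-0.63 and -1.48, with -0.43 in females after centring on 2R, 3L and 3R genes). Its 3 transcript models differed in level, with means of 1895, 1806 and 213 CPM, but had like changes, from -0.64 to -0.59 in females and from -1.49 to -1.39 in males. Cpr78E stood at 595, 581, 287 and 233 CPM in the same order of groups (-1.05 and -1.32). In both genes each trisomic mean was below each normal mean, and the male change was the larger one.

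Among less abundant members, Cpr57A and Cpr92F were lower in both sexes as well. Cpr57A, whose exons overlap those of Obp57d in the reference annotation, stood at 114.96 and 107 CPM in normal females and males and at 59.6 and 66.8 CPM in trisomic ones (-0.94 and -0.67). Cpr92F stood at 15.7, 12.7, 9.004 and 7.39 CPM (-0.74 and -0.71). Centring on 2R, 3L and 3R genes ended the call of Cpr92F in both sexes (-0.54 and -0.40) and of Cpr57A in males (-0.36), and a pseudocount of 5 CPM also ended that of Cpr92F (-0.56 and -0.52). In females alone 2 more passed 1.5-fold: Cpr11B, at 19.5 CPM in females with the normal karyotype and 8.32 CPM in trisomic ones (-1.14), and Cpr49Af, with 35.9 and 21.3 CPM (-0.73, or -0.53 after that centring). In males Cpr11B had 10.1 and 7.75 CPM (-0.34) and Cpr49Af 25.1 and 28.5 CPM (0.17).

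The 8 members with higher levels in both sexes were Cpr47Ec, Cpr47Eg, Cpr11A, Cpr67Fa1, Cpr67Fa2, Lcp65Ac, Lcp65Ag1 and Lcp65Ag3. Their summed level stood at 90.3 and 59.7 CPM in normal females and males and at 372 and 432 CPM in trisomic ones. The 6 members lower in both sexes summed to 7655, 7011, 3592 and 3190.3 CPM in the same order. The members that were higher are therefore a small part of all cuticle RNA even in trisomic larvae.

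Both genes at 67F with a mean over 10 CPM, the neighbours Cpr67Fa1 and Cpr67Fa2, were higher. Cpr67Fa1 stood at 4.61 and 2.97 CPM in normal females and males and at 29.5 and 32.2 CPM in trisomic ones (2.44 and 3.06). Cpr67Fa2 stood at 4.87, 3.37, 46.3 and 50.5 CPM (3.01 and 3.56). Per kb the ratio of Cpr67Fa2 to Cpr67Fa1 was 1.04 and 1.11 in normal larvae and 1.54 in both trisomic groups, so the fold between karyotypes was the larger one for Cpr67Fa2. The names mark them as close copies, and reads that fit both may be divided between them in a way the sources used here do not state.

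At 47E, a cluster of 7 members on 2R, 3 passed the minimum and they differed among themselves. Cpr47Eg stood at 7.75 and 3.81 CPM in normal females and males and at 65.8 and 90.7 CPM in trisomic ones (2.93 and 4.25). Cpr47Ec stood at 32.7, 20.6, 92.5 and 104 CPM (1.47 and 2.27). Cpr47Eb, in the same cluster, stood at 29.9, 18.03, 20.8 and 28.4 CPM, with a change of -0.50 in females and 0.63 in males. Its normal and trisomic means interleave, while those of Cpr47Eg and Cpr47Ec are apart. Per kb, Cpr47Eg was 0.503 and 0.41 times Cpr47Eb in normal females and males and 6.14 and 6.20 times in trisomic ones.

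Cpr11A, on the X, stood at 13.7 and 11.5 CPM in normal females and males and at 56.6 and 63.2 CPM in trisomic ones (1.97 and 2.36). Of the other X members above the minimum, Cpr11B is described with the lower genes, and Cpr12A stood at 33.6, 35.6, 33.3 and 25.7 CPM (-0.01 and -0.45).

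The 65A region on 3L holds 18 members, 10 named Lcp65A, 7 named Cpr65A and Acp65Aa, and 4 of them passed the minimum. Lcp65Ac stood at 24.5 and 16.03 CPM in normal females and males and at 39.997 and 44.04 CPM in trisomic ones (0.69 and 1.40). Lcp65Ag3 stood at 1.598, 1.04, 18.5 and 29.4 CPM (2.90 and 3.90). Lcp65Ag1 stood at 0.655, 0.32, 22.9 and 18.5 CPM (3.85 and 3.89). Lcp65Ag3 overlaps an annotated antisense RNA, so without known strand handling the reads of the pair cannot be told apart. The normal means of Lcp65Ag3 and Lcp65Ag1 lie in the range where values do not rank genes. With all values under 2.81 CPM raised to that figure their changes were 2.35 and 2.997 (Lcp65Ag3) and 2.65 and 2.36 (Lcp65Ag1), an alternative chosen after the data were seen.

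The third gene of that name, Lcp65Ag2, stood at 0.982, 0.466, 1.85 and 2.31 CPM and so stayed near the bottom of the scale in every group. Lcp65Ag1, Lcp65Ag2 and Lcp65Ag3 are close copies, so how reads were shared among them is uncertain. Summed over the 10 genes named Lcp65A, which counts any shared read in each copy it was given to, levels stood at 34.9 and 23.6 CPM in normal females and males and at 91.4 and 103 CPM in trisomic ones. Cpr65Av, of the same region, stood at 31.6, 26.1, 21.5 and 23.5 CPM (-0.54 and -0.14). Members of 65A thus lay on both sides of 0.

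**Figure D3:**
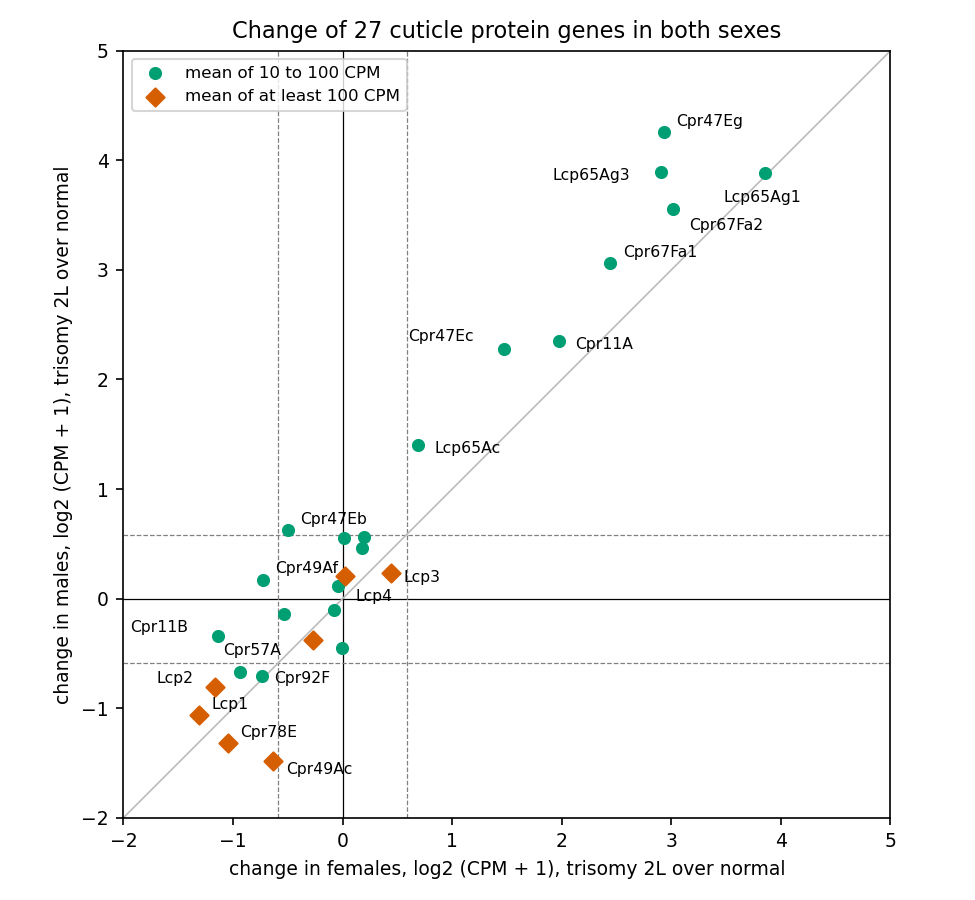
Log2 change of CPM + 1, trisomy 2L over normal, in females (x axis) and males (y axis), 1 point for each of the 27 cuticle protein genes with a mean of at least 10 CPM. Orange diamonds have a mean of at least 100 CPM and green circles a mean of 10 to 100 CPM, dashed lines mark 1.5-fold and the grey diagonal equal change. The 8 genes higher in both sexes, which include Cpr47Eg at 2.93 and 4.25, lie on or above the diagonal.

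The remaining members above the minimum stayed within 1.5-fold in both sexes. Cpr67B stood at 144 and 137 CPM in normal females and males and at 119 and 105 CPM in trisomic ones (-0.27 and -0.38). Lcp9 stood at 46.5, 45.2, 53.6 and 67.3 CPM (0.20 and 0.56). Cpr60D stood at 62.4, 46.7, 62.8 and 69.1 CPM (0.01 and 0.55). Lcp9 in males was the closest of the uncalled values to the threshold. Its exons overlap those of an antisense RNA in the reference annotation, which limits its reads in the same way. Cpr49Ag stood at 14.6, 13.03, 14.2 and 14.2 CPM (-0.04 and 0.11). Cpr51A stood at 12.8, 12.02, 12.1 and 11.1 CPM (-0.08 and -0.11). Cpr100A stood at 11.3, 9.41, 12.8 and 13.4 CPM (0.17 and 0.47). The karyotypes overlapped for Cpr49Ag and Cpr51A and not for Cpr100A.

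Members under the minimum include the genes named for later stages. Edg78E, known from pupal cuticle, stood at 0.345 and 0.457 CPM in normal females and males and at 0.128 and 0.138 CPM in trisomic ones. Acp65Aa, the adult cuticle gene, stood at 0.0843, 0.287, 0.0575 and 0.0826 CPM. Edg84A stood at 2.22, 0.245, 1.34 and 0.389 CPM, where 2.22 in normal females and 0.389 in trisomic males are values shared by 645 and 401 transcript models. No difference can be read from these 3 genes. Edg91 stood at 2.72 and 1.77 CPM in normal females and males and at 5.99 and 5.33 CPM in trisomic ones (0.91 and 1.19).

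Of the 62 members under the minimum, 11 reached 3 CPM in at least 1 group, and they too lay on both sides of 0. Cpr62Bc stood at 3.93 and 3.16 CPM in normal females and males and at 11.04 and 14.8 CPM in trisomic ones (1.29 and 1.92). Cpr78Cc stood at 1.98, 3.505, 4.13 and 5.82 CPM (0.78 and 0.60). Lower in both sexes was Cpr78Ca, with 6.14, 5.52, 3.16 and 2.76 CPM (-0.78 and -0.80). The sexes differed in size or direction for Cpr49Ah (-1.20 and -0.47), Cpr65Aw (-0.89 and -0.23), Cpr65Ay (-0.59 and 0.18), Cpr65Au (-0.57 and 0.14), Lcp65Aa (-0.18 and 0.18) and Cpr56F (-0.25 and -0.47). Lcp65Ae lay between 0.197 and 1.79 CPM, and Lcp65Af, Lcp65Ad, Lcp65Ab1 and Lcp65Ab2 at no more than 0.471 CPM, in every group. Lcp65Ab1 and Lcp65Ab2 carry identical values in all 4 groups, as do Cpr65Ax1 and Cpr65Ax2, so the deposited values do not separate the genes of either pair.

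All 5 members on 2L were under the minimum. They are Cpr23B, Cpr30B, Cpr30F, Cpr31A and Cpr35B, and they are named here after their values had been seen. Cpr31A was the highest and stood at 0.99 and 1.35 CPM in normal females and males and at 3.86 and 4.69 CPM in trisomic ones (1.29 and 1.28). Cpr35B stood at 0.127, 0.133, 0.109 and 0.101 CPM and the 5 genes together at 4.33, 2.74, 5.56 and 5.36 CPM. At these levels a difference that goes with the extra copy could not be read.

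The sexes were then compared within a karyotype. In normal larvae 3547 of all 6308 genes had a higher mean in males than in females. Of the 27 members 25 had a lower mean in males, with a median of -0.26 against 0.05 over all genes. Cpr49Ac (0.21) and Cpr12A (0.08) were the exceptions. At least 1.5-fold lower in normal males were 4 members, Cpr11B (-0.88), Cpr47Eg (-0.86), Cpr47Eb (-0.70) and Cpr47Ec (-0.64), and none was higher, against 3.68% lower and 14.3% higher of all genes. In trisomic larvae 15 members were above 0 and 12 below, a share like the 3653 of 6308 above 0 among all genes. The members' median was 0.10 against 0.05 over all genes. There Cpr49Ac was lower in males (-0.64) and Lcp65Ag3 higher (0.64), against 2.06% and 10.9% of all genes. Of the 27 members, 21 (77.8%) had a change with karyotype that was larger, or less negative, in males than in females, as had 41.6% of all genes. This count is not separate from the sex differences above. The male change less the female change equals the sex difference in trisomic larvae less that in normal larvae. Of the 8 members that were higher in both sexes, 7 had the larger change in males under every alternative run, and Lcp65Ag1 had changes of nearly one size, larger in females with a pseudocount of 5 CPM (2.30 and 2.14).

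Differences between karyotypes also varied with transcript length over the whole table, and cuticle genes are short. Of the 27 members 21 had an exonic length under 1000 bases, with a median of 659.5 and a range from 394 to 1858. Over 2R, 3L and 3R genes the median change was -0.20 in females and -0.31 in males. For those under 1000 bases it was -0.53 and -0.59, and for those of at least 3000 bases 0.14 and -0.07. Against genes of the members' length range, whose medians were -0.42 and -0.53, the same 8 higher members were at least 1.5-fold higher in both sexes. As given above, 5 of these had to differ. The centring also raised every change, so no higher call could be lost under it. Of the 6 members lower in both sexes, only Cpr78E was past 1.5-fold in both, at -0.62 and -0.79. Lcp1 then had changes of -0.88 and -0.54, Lcp2 -0.74 and -0.28, and Cpr49Ac -0.21 and -0.96, while Lcp3 (0.87 and 0.76) passed 1.5-fold in both sexes and Lcp4 (0.45 and 0.74) in males. This centring was added after the data were seen. The direction of Cpr67B and Cpr12A in both sexes, of Cpr51A in both sexes, of Cpr49Ag in females and of Cpr65Av and Cpr11B in males turned under it. What share of these changes goes with length was not tested further.

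**Figure D4:**
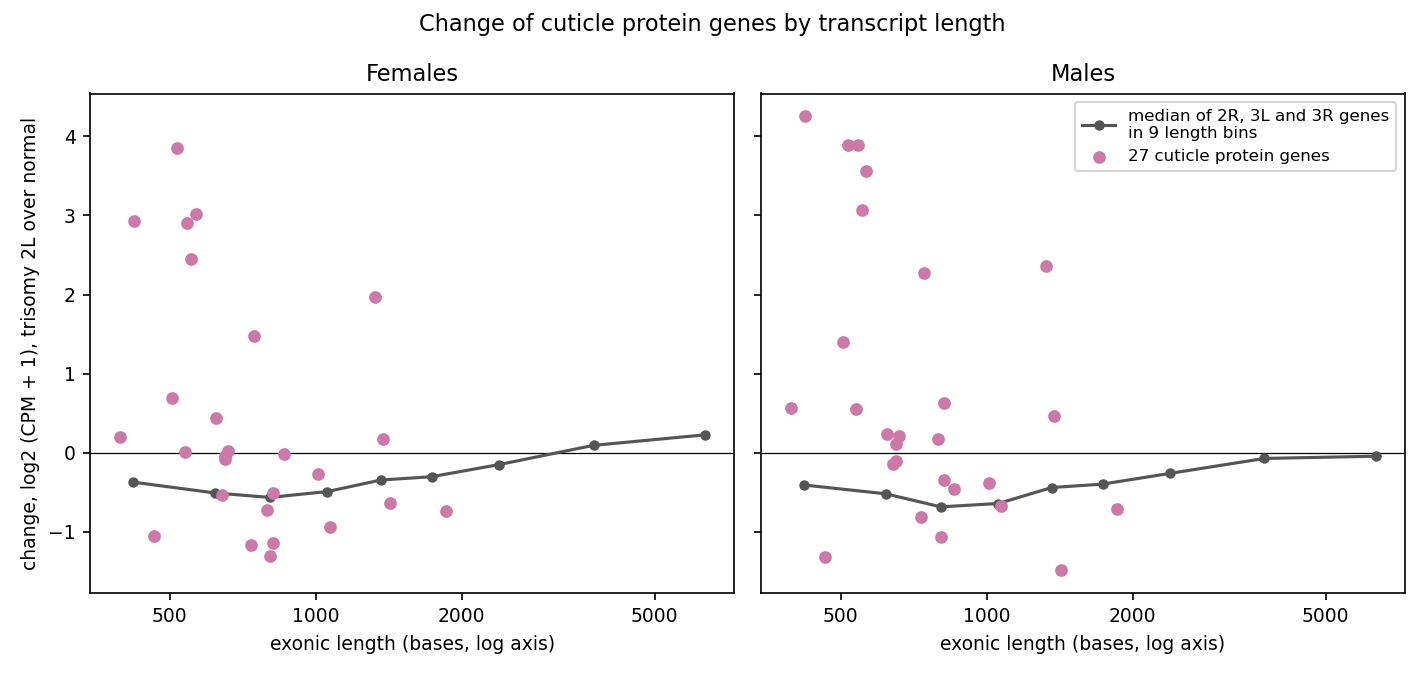
Log2 change of CPM + 1, trisomy 2L over normal, against exonic length in bases on a log axis, in females (left) and males (right). Purple points are the 27 cuticle protein genes and the grey line joins medians of 2R, 3L and 3R genes in 9 length bins. The line lies below 0 at the members' lengths, at -0.51 and -0.52 for genes of 500 to 700 bases, and the 8 higher members lie above it.

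Other genes of cuticle building were examined as lists. Among 25 genes of chitin synthesis, assembly and turnover, 21 had a mean of at least 10 CPM, and 10 of these were higher and 2 lower in trisomic females, 11 and 2 in males, against the 15.3% and 18.3% (females) and 17% and 29.5% (males) of all genes given above. Their medians were 0.52 and 0.64, beside -0.06 and -0.18 over all genes. Exonic lengths of these 21 genes ran from 1161 (Cht9) to 8588 bases (Cht6), and most are longer than the cuticle members. What goes with length was not tested for them. Higher in both sexes were mmy, which encodes the enzyme for UDP-N-acetylglucosamine, on 2L, with 30.5, 22.8, 81.2 and 92.4 CPM (1.38 and 1.97), and kkv, the chitin synthase of the epidermis, with 28.3, 25.5, 53.4 and 59.3 CPM (0.89 and 1.19). The chitin deacetylase genes verm (1.08 and 1.47) and serp (0.77 and 1.18) were higher too. Gfat1, which acts at the start of the supply of that sugar, stood at -0.26 and -0.16 with a mean of 114.6 CPM, and CS-2, the second chitin synthase gene, was under the minimum (0.13 and 0.86). These 6 genes were picked after their values had been seen.

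The 2 largest upward changes of that list were those of Cht4 and Cht2 in females and of Cht4 and Cht9 in males, all chitinase genes by name. Cht4 stood at 1.53, 1.61, 17.7 and 22.8 CPM (2.89 and 3.19), Cht2 at 8.93, 8.78, 25.2 and 24.7 CPM (1.40 and 1.40), and Cht9 at 11.2, 12.6, 25.8 and 61.2 CPM (1.13 and 2.19). The normal levels of Cht4 are in the range that does not rank genes. Cht4 and Cht2 reached the minimum only through the trisomic groups and so had to be higher. Lower were Cht11 (-0.95 and -1.19), Cda9 (-0.93 and -0.35) and, in males, Cht12, which stood at 34.2 CPM in normal and 14.5 CPM in trisomic males and at 0.116 and 0.236 CPM in normal and trisomic females. Cht11, with 7.83 and 5.58 CPM in trisomic females and males, and Cht12 reached the minimum only through the normal groups. They had to be lower on average over the sexes, so opposite directions among chitinase genes cannot be read from these.

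Of 44 genes of other cuticle protein families, 9 passed the minimum, with 3 higher and 1 lower in females and 4 higher and 1 lower in males. Over all genes the shares were 15.3% and 18.3% in females and 17% and 29.5% in males, and with 9 genes no difference from them was tested. The chitin-binding Obstructor genes obst-E (17.1, 9.80, 54.97 and 58.4 CPM, 1.63 and 2.46) and obst-B (1.24 and 1.81) were highest. Both lie on 2L, as does Pcp, a pupal cuticle protein gene with 165, 197, 126 and 87.9 CPM (-0.38 and -1.15). TwdlX, on the X, was higher as well (1.10 and 1.80). TwdlX and obst-B (8.38, 6.01, 21.1 and 23.5 CPM) reached the minimum only through the trisomic groups and so had to be higher. In females obst-F (-0.85) was lower and Gasp stood at -0.48. The sum over this list was 511, 492, 497 and 487 CPM and the medians were 0.04 and 0.10.

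None of the 5 apical matrix genes that passed, out of 12, was past 1.5-fold in either sex, with dp (dumpy, 0.57 and -0.23), pot (0.503 and 0.4996), pio (0.40 and 0.30), tyn (-0.07 and -0.49) and qsm, listed under an older name (-0.20 and -0.19). Over all genes 15.3% were higher and 18.3% lower in females, and 17% and 29.5% in males, so 5 genes are few for a comparison. Of 14 cuticle tanning genes 10 passed the minimum, and of these 4 were higher and 3 lower in females (15.3% and 18.3% of all genes), while none was higher and 5 were lower in males (17% and 29.5%). The difference between the sexes was not tested. In females e (ebony, 1.595) and b (black, 1.08) were higher and yellow-e (-0.88), Dat (-0.72) and yellow-f (-0.69) lower. Ddc (0.97) and yellow-c (0.85) were also higher in females, and these and b lie on 2L, the arm with the extra copy. In males ple, the tyrosine hydroxylase gene, was lowest with 316 CPM in normal and 74.4 CPM in trisomic males (-2.07), and yellow-f (-1.43) and yellow-e (-1.14) were lower as well. CG42345, the laccase gene stw of other annotations, stood at -0.03 and 0.10.

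Genes known for their use at the end of larval life also differed between the karyotypes. All 7 salivary glue genes were at least 1.5-fold lower in both sexes, where 18.3% (females) and 29.5% (males) of all genes were lower. Their summed levels stood at 19471 and 18299 CPM in normal females and males and at 6715 and 4950.4 CPM in trisomic ones. The changes of Sgs8 (-2.58 and -2.93), Sgs5 (-2.02 and -2.18) and Sgs7 (-1.87 and -2.23) were the largest. Sgs8, Sgs5 and Sgs7 are short, at 359, 636 and 321 bases, and what goes with length was not tested for them. An ecdysone list of 22 genes held response genes and also some genes of hormone synthesis, such as shd. Of these 22 genes 11 passed, and 2 were lower in females (shd -1.05 and Eip71CD -0.67), a share like the 18.3% of all genes. Lower in males were 7, against 29.5%, and the medians were -0.05 and -0.77. In males ImpE2 (-1.21) and ImpE3 (-1.19) led, and usp (0.30 and 0.29) was above 0 in both sexes. ImpE3 (12.9, 15.8, 11.6 and 6.33 CPM) reached the minimum only through the normal groups and so had to be lower on average over the sexes. The larval serum protein list, which holds Fbp1 and Fbp2 beside the Lsp genes, summed to 63092 and 49168 CPM in normal females and males. In trisomic ones it summed to 73537 and 55948 CPM. Lsp1alpha (1.63 and 0.96) and Lsp1beta, which lies on 2L (0.68 and 0.75), were higher and Lsp2 was lower (-0.81 and -0.72). Fbp1 stood at 0.28 and -0.42. The part of these differences in the cuticle results was not tested.

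**Figure D5:**
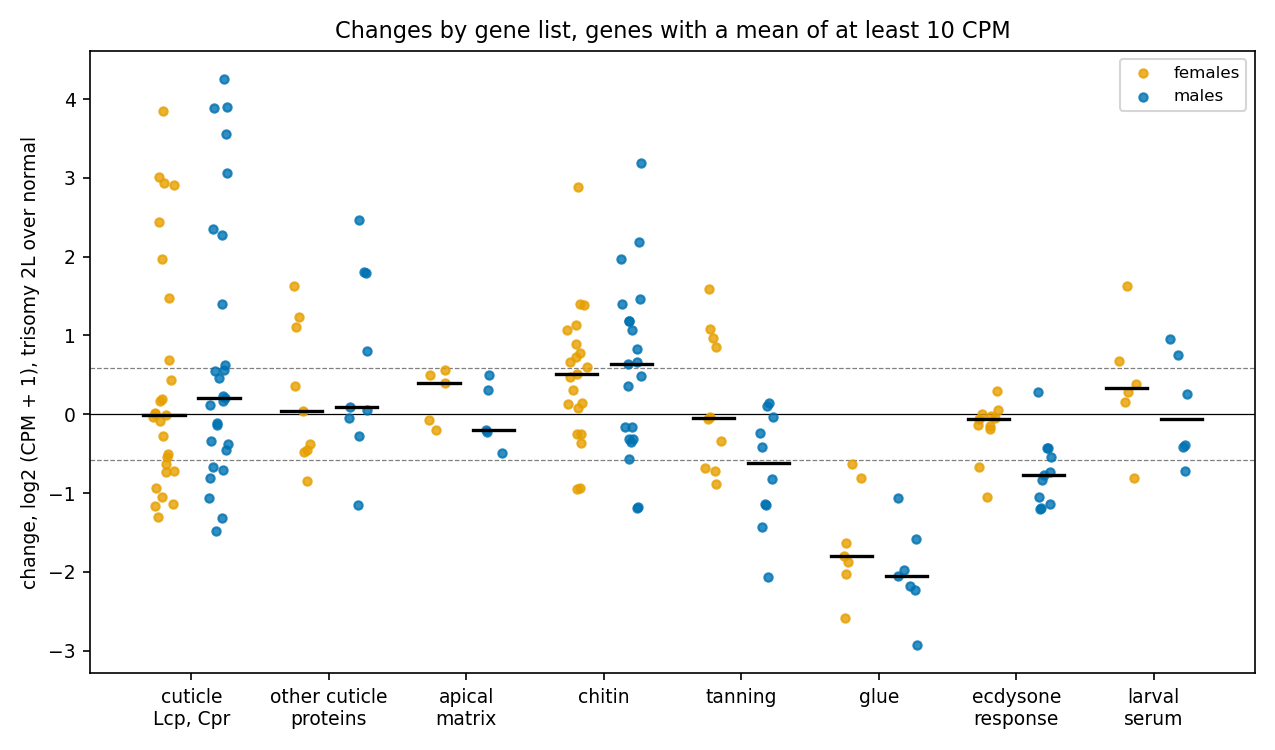
Log2 change of CPM + 1, trisomy 2L over normal, of every gene with a mean of at least 10 CPM in the cuticle protein set and in 7 other lists. Orange points are females, blue points males, black bars list medians and dashed lines 1.5-fold. The cuticle protein set spreads from -1.48 to 4.25, chitin genes have medians of 0.52 and 0.64 and all glue genes lie below 0.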

How the data were processed

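Total RNA of larvae was sequenced from TruSeq libraries, per the labels' protocols. TopHat, HTSeq and build dm3 are named by the submitters' processing notes. No source used here gives the annotation or whether strand was used. The authors deposited CPM as 1 average for each group, per the file headers, in 2 tables (autosomal and X genes) that share 1 scale of 1000000 over 22738 transcript models. Depth per sample is unknown. Low values are not reliable: in normal females 645 models share 2.22 CPM, the most frequent value, while 6146 lie below it (trisomic females: 608 at 2.81 CPM, 6457 below; normal males: 373 at 0.845, 3010 below; trisomic males: 401 at 0.389, 2171 below), so values under about 3 CPM do not rank genes.

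Members have 96 models, and models of a gene were averaged. Names were matched to Ensembl annotation of BDGP6, a later build than dm3, for exonic length (median over transcripts), order and strand. It matched all 89 members, each on the deposited arm, and 98.1% of the 6308 genes with a mean of at least 10 CPM. In it Cpr57A, Lcp9 and Lcp65Ag3 share exon bases with another gene. The steps were tested on simulated data. The members and lists were chosen with earlier results of these data known. Named are all members with at least 10 CPM, the next 10, all Lcp, Edg and Acp65 genes, and the 2 list genes with the largest change in each direction. Alternatives, of which length centring and the raising of low values were added after seeing the data, changed the pseudocount (0.1 or 5), the minimum (none, 5 or 20 CPM), the choice of model, centring and the fold (2). No test was run because the columns are means. Python 3.11.15, numpy 2.4.6, pandas 2.3.3 and matplotlib 3.10.9 were used.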

Additional observations from a re-analysis of the deposited data

Results flagged for a closer look

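Genes were flagged where females and males had karyotype changes of opposite sign that lay at least 1.5-fold apart. This held for 2 of the 27 cuticle members above the 10 CPM minimum. It also held for 13 genes of the other lists that reached that minimum. None of these differences was tested. How many of all 6308 genes meet this rule was not counted. Whether the flagged genes are many or few for their number therefore cannot be read. The change in males less that in females was 1.13 for Cpr47Eb (-0.50 in females, 0.63 in males) and 0.90 for Cpr49Af (-0.73 and 0.17). Among the tanning genes it was -2.005 for e, -1.67 for yellow-c, -1.32 for b, -1.005 for Ddc and 0.86 for Dat. Among chitinase genes it was -1.33 for Cht12, which is near 0 CPM in females, -0.78 for Cht5 and -0.68 for Cht3. It was -1.26 for ImpE2 and -1.06 for br, both ecdysone response genes, with a female change of 0.05 and 0.0059. It was -0.80 for dp, -0.77 for Fbp2 and -0.70 for Fbp1.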

How the results depend on the processing

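None of the members' called changes with karyotype turned direction under an alternative that gave a value, and single genes of the other lists and single sex differences were not recomputed. The 8 members higher in both sexes stayed past 1.5-fold in both under every one, while of the 6 lower members only Cpr78E did, although all 6 kept their direction. Each centring of the karyotype changes raised all of them, so it could end lower calls but not higher ones. The contrast is therefore partly set by the alternatives themselves. Of these 8 higher members 5 reached the minimum only through the trisomic groups and so had to differ. Cpr67Fa1, Lcp65Ag1 and Lcp65Ag3 gave no value with a minimum of 20 CPM. With no minimum 18 members were higher and 18 lower in trisomic females and 18 higher in males, the male median was 0.028, and 1 was higher and 14 lower in normal males than females and 12 lower in trisomic males than females. With a minimum of 20 CPM 5 were higher in trisomic females, and none in trisomic males against trisomic females. Centring on 2R, 3L and 3R genes gave 5 lower in females and 3 in males and medians of 0.19 and 0.52. Centring on genes of the members' length, added after the data were seen, gave 4 lower in females, 16 higher and 2 lower in males, and medians of 0.42 and 0.74. At 2-fold 4 were lower in trisomic females and 3 in trisomic males, and between the sexes 0 were called lower in normal males, 0 higher and 0 lower in trisomic males. A pseudocount of 0.1 gave 7 and one of 5 gave 2 members lower in normal males than females, and one of 5 gave 0 higher in trisomic males than females. The cause of these shifts was not tested beyond what each setting itself changes. For the counts under these settings no share over all genes is given here. No paired analysis was possible because the deposited columns are group means without replicate values, and for the same reason no replicate could be left out.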
